A study of Arabidopsis thaliana with 96 samples.

Results

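Kil and Bur are 2 natural accessions of *Arabidopsis thaliana*, a small annual plant with 5 nuclear chromosomes. Their open chromatin was compared through all 4 peak lists of Kil and all 4 of Bur, which are 8 of the 96 lists of the series. They hold 61731 nuclear peaks, 34714 in the Kil lists and 27017 in the Bur lists, of 1101264 in all lists. The members are all lists with these labels, and the pair was chosen with earlier results of these data known. The samples of both accessions are leaf, from plants grown at 22 °C under 16 h of light and 8 h of dark, with no transgene, mutation or treatment named. The study knows Kil as Kil-0, from the United Kingdom. Bur is not named in its tables, which list a Bu-0 from Germany instead, so an Atlantic origin of Bur was not settled here. No gene positions on the sequences of either accession were used here, so the leaf label was not checked against marker genes.

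ATAC-seq uses the Tn5 transposase, which inserts adapters into DNA that nucleosomes leave free, so that reads pile up over promoters, enhancers and other open sites. Along an *A. thaliana* chromosome the arms are rich in genes and open sites, while the pericentromere, the heterochromatin around the centromere, is rich in transposons and poor in genes. The centromere itself is a long array of satellite repeats, on which short reads cannot be placed uniquely. Chloroplast and mitochondrial DNA carry no nucleosomes and are cut readily when plastids or mitochondria remain with the nuclei. A peak summit is the position in a peak with the highest pileup, which is the number of overlapping read fragments.

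The paper reports that the reads of each accession were mapped to its own genome. The Kil and Bur lists carry plain chromosome names, not the names of the reference chromosomes. The headers counted 2461631, 2394245, 2452660 and 2427946 tags in the Kil files, against 2122474, 2097761, 2145427 and 2127165 in the Bur files. At summits called in both files of a pair, the pileups of files of 1 accession differed by no more than the sampling of reads. An index of 1 is the scatter that drawing reads from 1 library gives, and the index of summit pileups was 0.849 to 0.882 over the 6 pairs of Kil files, against 0.828 to 0.883 over the 6 pairs of Bur files. The pairs were compared at 3437 to 3567 summits in Kil and 1838 to 1993 in Bur. These lay within 50 bp in the 2 files, and their 2 pileups summed to at least 40. They were 40.5% to 41.3% of the smaller list of a pair in Kil and 27.8% to 30.4% in Bur. The index does not cover weaker summits or those called in 1 file of a pair. Numbers of peaks varied more, with 7435 nuclear peaks in Bur replicate 2 and 6406 to 6610 in the other 3 Bur files. From the pileups, each accession was counted as 1 sample, and no test between Kil and Bur was possible. Ranges and SDs over the 4 files are technical spread, and intervals cover counting error only. Where 4 values are given, they are those of replicates 1 to 4. The Bur headers carry a number that the headers of 5 of the 15 other accessions with plain chromosome names share and the Kil headers lack, and what this number marks was not given in the sources used here.

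The Bur lists ran in the opposite direction on chromosomes 1 and 5. This was read from summits found in at least 2 files, set against those of Og, an accession whose lists carry the names of the reference chromosomes, in blocks of 1 Mb with 1 offset per block. On chromosome 1, 10.7% of the Bur summits found an Og partner within 100 bp as listed, and 62.5% did when the chromosome was read from its other end. On chromosome 5 these shares were 10.3% and 66.3%. On Bur chromosomes 2, 3 and 4 the order was the other way round, with 63.7%, 64.3% and 57.6% as listed and 9.58%, 10.2% and 9.26% when reversed. All 5 Kil chromosomes ran with the reference, with 57.0% to 65.9% of summits matched as listed and 8.54% to 9.86% when reversed. Among the 15 other accessions with plain chromosome names, 4 of 75 chromosomes were reversed.

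**Figure D1:**
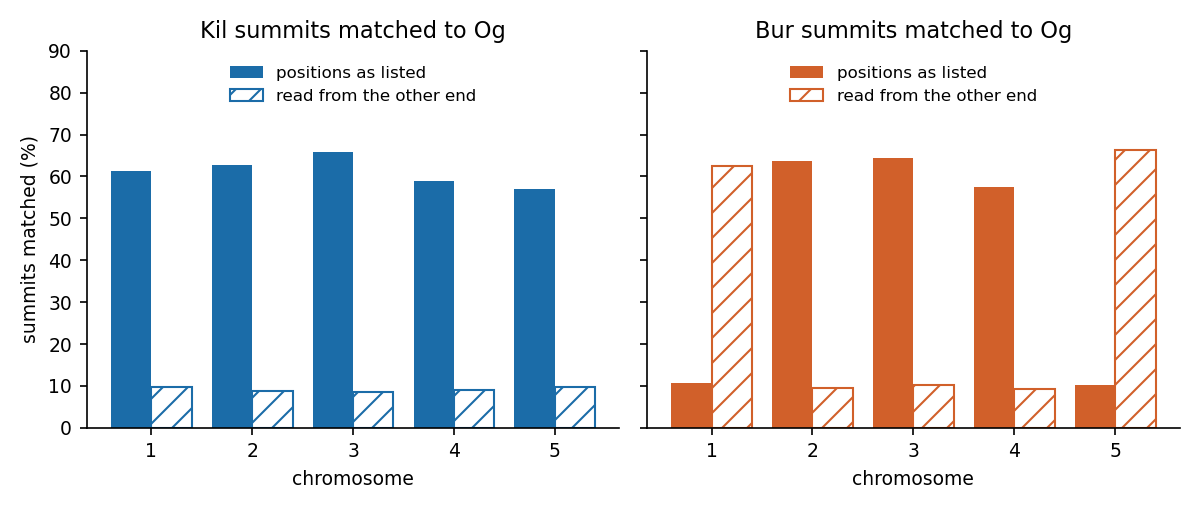
Share of nuclear summits with an Og summit within 100 bp (%, y axis) for each chromosome (x axis), in Kil (left panel) and Bur (right panel), with positions as listed (filled bars) and read from the other end (hatched bars). The high bar is the filled one on all 5 Kil chromosomes, at 57.0% to 65.9%, and the hatched one on Bur chromosomes 1 and 5, at 62.5% and 66.3%.

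Fewer windows were called once the directions were matched. The share of an accession's nuclear peaks was computed in each window of 500 kb, and a window was called when the mean shares differed by at least 1.5-fold and the 4 files of Kil did not overlap the 4 of Bur, among windows with a mean of at least 10 peaks per file. With positions as listed, 218 windows were compared. The Kil share was higher in 15 of them, or 6.88%, and lower in 16, or 7.34%. Of these 31 windows, 26 lay on chromosomes 1 and 5. With Bur chromosomes 1 and 5 read from the other end, 214 windows were compared, and the Kil share was higher in 1, or 0.467%, and lower in 6, or 2.8%. Only 2 of these 7 windows were on chromosomes 1 and 5. Across all windows the correlation of Kil with Bur shares was 0.77 as listed and 0.92 with directions matched, and on chromosome 5 alone it was 0.27 and 0.91. Neighbouring windows share their chromosome landscape, so these correlations are descriptions.

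The extreme windows as listed were all on chromosomes 1 and 5. From 11 to 11.5 Mb of chromosome 5, the Kil files held 1, 1, 2 and 1 peaks, against 30, 34, 29 and 30 in the Bur files, a share ratio of 0.0315. From 16 to 16.5 Mb of chromosome 5, the Kil files held 57, 54, 50 and 54 peaks, against 8, 7, 6 and 7 in the Bur files, a ratio of 5.96. In both stretches Kil pericentromere was set against Bur arm, or Kil arm against Bur pericentromere. The next lowest ratios were 0.0805 at 10.5 Mb and 0.331 at 10 Mb of chromosome 5, 0.215 at 13.5 Mb of chromosome 1 and 0.361 at 13 Mb of chromosome 5. The next highest were 5.30 at 14.5 Mb and 4.85 at 15.5 Mb of chromosome 5, 2.31 at the start of chromosome 1 and 2.23 at 16.5 Mb of chromosome 1. With directions matched, 6 of these 10 windows were compared and none was called. The other 4, at 10.5, 11 and 13 Mb of chromosome 5 and 13.5 Mb of chromosome 1, fell under 10 peaks per file and could not be called. Among them, the window from 11 to 11.5 Mb held means of 1.25 peaks in Kil files and 7 in Bur files, a share ratio of 0.138.

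**Figure D2:**
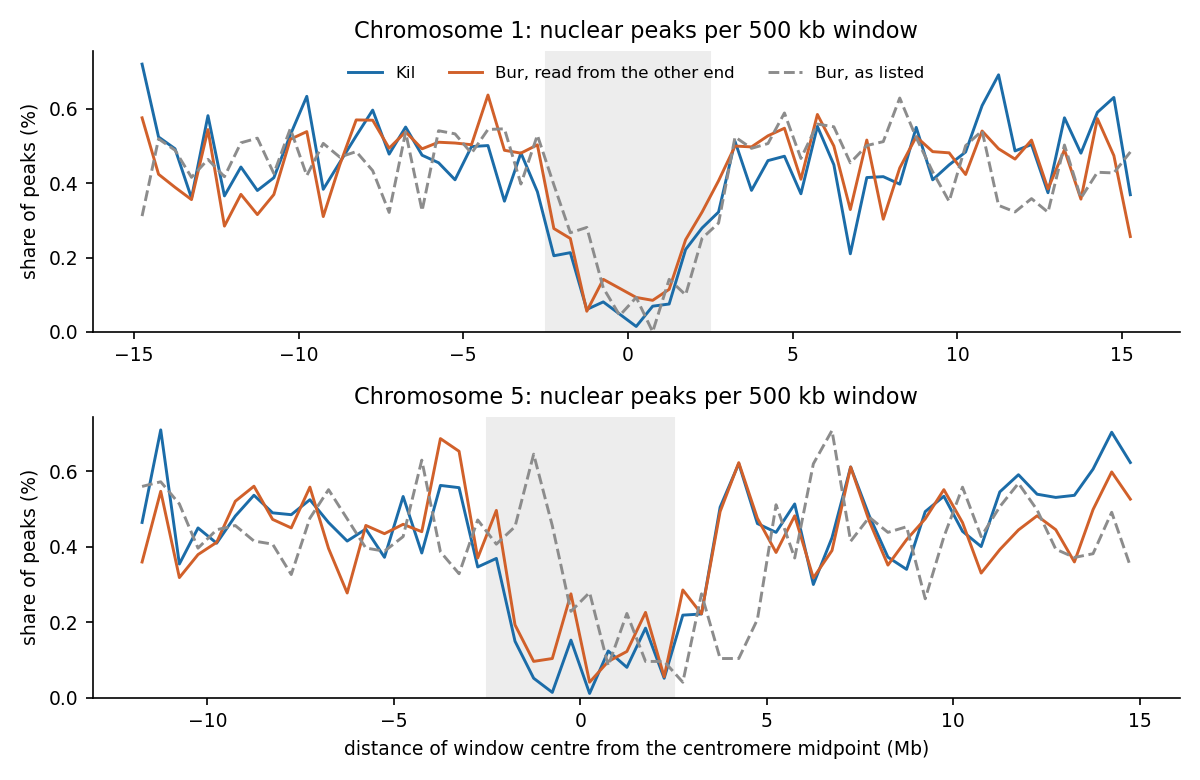
Share of nuclear peaks per 500 kb window (%, mean of 4 files, y axis) against the distance of the window from the centromere midpoint (Mb, x axis) on chromosomes 1 and 5, for Kil (blue), Bur read from the other end (orange) and Bur as listed (grey dashes); the shaded band is 2.5 Mb either side. On chromosome 5 the grey trough lies to the right of the blue one, and the orange trough lies on it, with a correlation of 0.91 to Kil against 0.27 as listed.

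**Figure D3:**
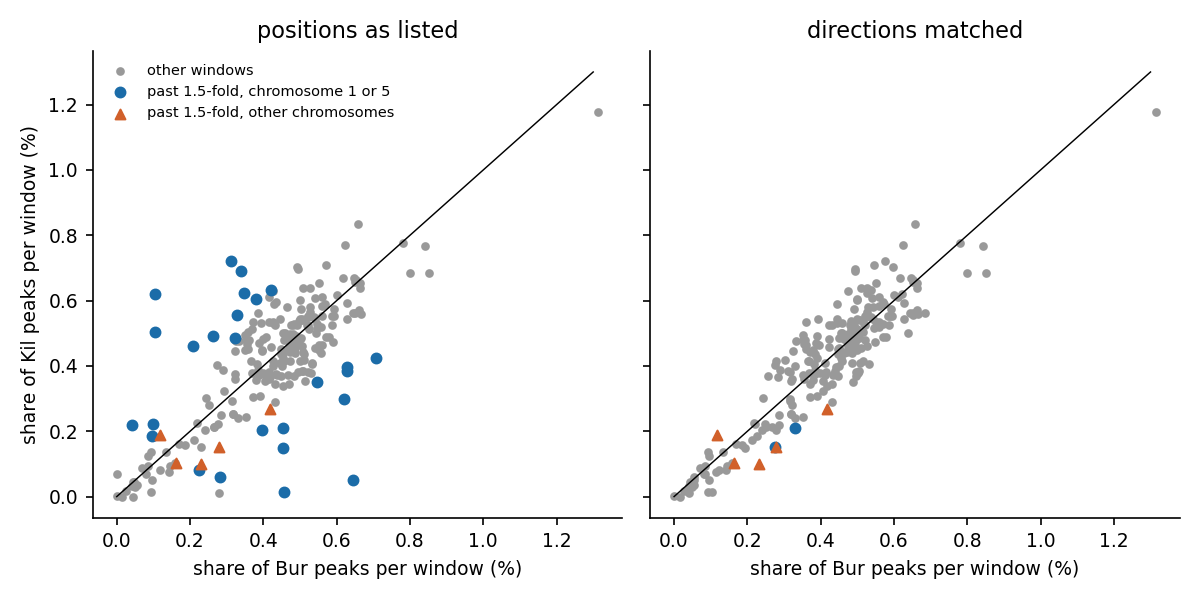
Share of Kil peaks (%, y axis) against share of Bur peaks (%, x axis) in 500 kb windows, with positions as listed (left) and directions matched (right); each point is a window, the line is equality, and coloured points are windows past 1.5-fold. The 26 called windows of chromosomes 1 and 5 in the left panel become 2 in the right panel.

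With directions matched, the 7 called windows lay almost all around the centromeres, 6 of them within 2.5 Mb of a centromere midpoint, where 26 windows were compared. The midpoints were set at 15, 3.6, 14, 4 and 12 Mb of chromosomes 1 to 5. From 3.5 to 4 Mb of chromosome 2, the Kil files held 7, 8, 11 and 9 peaks, against 14, 15, 15 and 18 in the Bur files, a share ratio of 0.436. Its ratio over summits in at least 2 files had an exact 95% counting interval of 0.162 to 0.977, the only one of the 7 that lay apart from 1. The 7 windows were selected from 214 by the same peaks, and the intervals were not adjusted for this. They therefore cannot serve as a test of any called window. From 14 to 14.5 Mb of chromosome 3, the Kil files held 13, 13, 14 and 13 peaks, against 19, 19, 18 and 19 in the Bur files. From 11.5 to 12 Mb of chromosome 5 they held 13, 12, 13 and 15 in Kil, against 17, 18, 20 and 19 in Bur. The remaining windows with a lower Kil share, at 21.5 Mb of chromosome 1, 5.5 Mb of chromosome 2 and 6 Mb of chromosome 4, had ratios of 0.638, 0.639 and 0.641. Kil files held 15 to 21, 8 to 10 and 20 to 25 peaks in them. Bur files held 20 to 25, 8 to 13 and 24 to 32. These counts overlapped between the accessions, and only the shares, taken of lists of unequal length, lay apart.

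A single window had the higher share in Kil at 500 kb with all files. From 3.5 to 4 Mb of chromosome 4, the Kil files held 16, 16, 17 and 16 peaks, against 9, 10, 8 and 5 in the Bur files, a share ratio of 1.59 with a counting interval of 0.676 to 4.42 over summits in at least 2 files. The balance was not stable. In windows of 250 kb the Kil share was higher in 16 and lower in 9 of 389. With at least 20 peaks per file it was higher in 0 and lower in 2 of 195. Without Bur replicate 2 it was higher in 4 and lower in 6 of 213. Without Kil replicate 2, without Bur replicate 1 or at a q-value of 0.001 or less it was higher in 3, and without Kil replicate 1 or Bur replicate 4 in 2. Between 213 and 215 windows were compared in each of these settings.

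Kil lists held more peaks than Bur lists. The Kil files held 8693, 8486, 8857 and 8678 nuclear peaks, against 6566, 7435, 6610 and 6406 in the Bur files. The means were 8679 ± 152 in Kil and 6754 ± 462 in Bur (SD, n = 4 files each), so Kil had 28.5% more peaks with 14.6% more tags. Every Kil file was above every Bur file. The share of peaks on each chromosome was close, at 25.4% on chromosome 1 in both accessions, for example. It was lower in Kil on chromosome 4, at 15.6% to 15.8% in Kil files and 16.4% to 17.0% in Bur files, and higher in Kil on chromosome 5, at 22.1% to 22.4% in Kil files and 21.3% to 21.7% in Bur files. Kil summits were in all 4 files for 43.4% of the union of 12665 summits, against 31.9% of 11069 in Bur.

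The extra Kil peaks were on the chromosome arms. With directions matched, the arms held 8011, 7831, 8173 and 8013 peaks in Kil files, against 5908, 6735, 5945 and 5782 in Bur files. The stretches within 2.5 Mb of the midpoints held 682, 655, 684 and 665 peaks in Kil files, against 658, 700, 665 and 624 in Bur files. The arms of every Kil file were thus above those of every Bur file, by 1.31-fold on average, while the pericentromeric counts overlapped, with a ratio of 1.01. On single chromosomes the arms of every Kil file were above those of every Bur file, with ratios between 1.24 on chromosome 4 and 1.36 on chromosome 5. Pericentromere ratios ran between 0.898 on chromosome 5 and 1.097 on chromosome 3. The pericentromeric counts overlapped or met on chromosomes 1 to 4, while on chromosome 5 they were lower in every Kil file than in every Bur file.

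As a share, the pericentromere held 7.74% ± 0.08 of the Kil peaks and 9.81% ± 0.30 of the Bur peaks (SD, n = 4 files each). The Kil files ranged from 7.66% to 7.85% and the Bur files from 9.41% to 10.1%, without overlap, and the exact 95% intervals of single files ended at 8.43% at most in Kil and began at 8.76% at least in Bur. The difference was -2.07 points, Kil minus Bur. With Bur positions as listed the Bur share was 11.2% ± 0.23, and the difference was -3.44 points. On chromosome 5 alone, Bur files held 194 to 216 peaks in that stretch as listed and 111 to 119 with directions matched, against 100 to 106 in Kil.

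The ratio of Kil to Bur peaks increased with distance from the centromere, in classes that were chosen after the values had been seen. It was 1.01 within 2.5 Mb of the midpoint, 1.15 from 2.5 to 5 Mb, 1.23 from 5 to 7.5 Mb, 1.34 from 7.5 to 10 Mb and 1.49 beyond 10 Mb. Peaks beyond 10 Mb made up 32.2% to 32.8% of each Kil list, against 27.8% to 28.1% of each Bur list. When each list was limited to its 6406 most significant peaks, the number in the shortest list, the ratios were 0.825, 0.913, 0.954, 1.03 and 1.15 in the same order. On single chromosomes the class beyond 10 Mb had a higher ratio than the class within 2.5 Mb on all 5, from 1.31 against 1.01 on chromosome 4 to 1.57 against 0.898 on chromosome 5. Not every step between was upward. From 1 class to the next the ratio fell from 1.18 to 1.14 on chromosome 2, from 1.48 to 1.45 on chromosome 3 and from 1.35 to 1.27 on chromosome 5. With equal numbers of peaks, chromosome 4 had 0.991 beyond 10 Mb, against 0.815 within 2.5 Mb. In the 15 other accessions the share beyond 10 Mb was 28.2% to 39.4%, and it was above the Kil share in 9 of them and above the Bur share in all 15. Without No, Nw and old, which the study set aside because peak calls and read coverage did not match by eye, it was 31.1% to 39.4% in the other 12. Among the 3 of these whose headers carry the same number as Bur it was 32.0% to 38.2%, against 31.1% to 39.4% in the 9 without it.

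**Figure D4:**
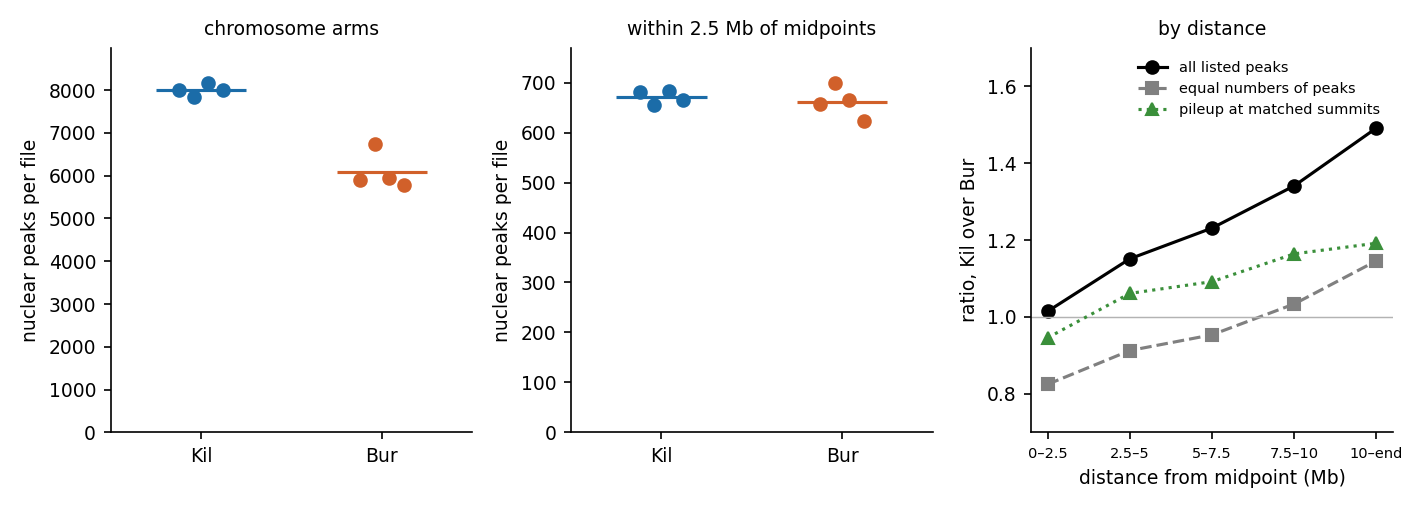
Nuclear peaks per file on the arms (left) and within 2.5 Mb of the centromere midpoints (middle), one point per file with a line at the mean, and the ratio of Kil to Bur by distance from the midpoint in Mb (right) for all listed peaks, for equal numbers of peaks and for the pileup at matched summits. Kil arms average 8007 peaks against 6093 in Bur, the pericentromeric counts overlap, and all 3 ratios increase outward.

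The pericentromere share of the other 15 accessions, with directions matched, ranged from 6.20% to 10.2%. It was above that of Kil in 6 and above that of Bur in 2, No and Nw. The lists of No, which the study set aside, carry the header number of Bur and were close to Bur. They averaged 6842 nuclear peaks against 6754 in Bur, with a pericentromere share of 9.87% against 9.81%. Their share beyond 10 Mb was 28.8% against 28.0%, and their median spacing 9.32 kb against 9.53 kb. Nw and old averaged 41298 and 11729 peaks. Why No resembled Bur was not tested. Without No, Nw and old, the pericentromere share of the other 12 ranged from 6.20% to 8.16%, with 3 above Kil and 0 above Bur. Of the 12, the 3 with the header number of Bur ranged from 6.70% to 7.67%, against 6.20% to 8.16% in the 9 without it. The part of the number, and of the 14.6% more tags of Kil, in the difference between Kil and Bur was not tested.

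A large piece of mitochondrial DNA is known to have been inserted next to the centromere of chromosome 2 in the reference accession. In TAIR10.1, aligned mitochondrial blocks of at least 5000 bp lay on chromosome 2 only, from 3250465 to 3509765. The window from 3 to 3.5 Mb of chromosome 2 held 104, 104, 104 and 97 peaks in the Kil files, against 87, 89, 92 and 86 in the Bur files. These were 14.6% to 15.9% of the Kil pericentromeric peaks and 12.7% to 13.8% of the Bur ones. Their median scaled pileup, the pileup per 1000000 tags in the header, was 54.2 to 58.5 in Kil files and 63.4 to 68.8 in Bur files, several times that of other nuclear peaks in both. Without this window the pericentromere share was 6.49% to 6.65% in Kil files and 8.22% to 8.70% in Bur files. Reads from the mitochondria and from the insertion cannot be told apart in these lists.

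The untreated Col-0 lists, whose headers carry the words Naked DNA, were read as a background. They differ from the Kil and Bur lists in accession, in depth and in using the names of the reference chromosomes. They held 580, 668, 754 and 743 nuclear peaks from 10822758 to 11043945 tags, and 75.2% to 78.4% of those lay within 2.5 Mb of the midpoints. Their summits were carried to Kil and Bur with the block offsets found against Og. In the pericentromere, 544 of 713 Kil summits and 494 of 700 Bur summits could be placed. Of these, 92 in Kil and 80 in Bur matched an untreated summit, 16.9% and 16.2%. On the arms 0.200% of Kil summits and 0.172% of Bur summits did. The matched pericentromeric summits had a median scaled pileup of 53.8 in Kil and 67.7 in Bur, while the unmatched ones had 10.06 in Kil and 10.01 in Bur.

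The height of peaks was compared as the scaled pileup. The header tags cover nucleus and organelles together, so this scale is not nuclear depth. The fragments counted in a pileup had a length set per file, at 158 to 161 bp in Kil and 155 to 168 bp in Bur. The part of either in the heights was not tested. The median over nuclear peaks was 8.63 ± 0.11 in Kil and 8.59 ± 0.39 in Bur (SD, n = 4 files each), and the Kil range of 8.53 to 8.77 lay within the Bur range of 8.10 to 8.95. A longer list reaches lower peaks, so the lists were also read at fixed ranks. The 10th highest peak had a scaled pileup of 132.5 in Kil and 152.9 in Bur, and the 100th had 52.7 in Kil and 61.9 in Bur. At rank 1000 the pileup was 18.2 in Kil and 14.6 in Bur, and at rank 5000 it was 7.91 in Kil and 6.95 in Bur. At each of these ranks the 4 files of Kil did not overlap the 4 of Bur. The Bur lists were thus higher at ranks 10 and 100 and the Kil lists at ranks 1000 and 5000. The single highest peak was higher in Kil, at 522.7 to 549.2 in Kil files and 377.1 to 406.0 in Bur files. On the arms alone the median was 8.53 to 8.77 in Kil files and 7.63 to 8.48 in Bur files, and in the pericentromere it was 10.6 to 11.1 in Kil files and 10.5 to 11.8 in Bur files.

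Most peaks of Bur had a partner in Kil. In blocks of 250 kb with 1 offset each, 5426 summits found in at least 2 files lay within 100 bp of each other, which was 60.02% of the 9041 Kil summits in blocks that could be matched and 75.7% of the 7171 Bur summits. By chromosome the Kil share was 57.9% to 62.9%. With 1 chromosome of the pair in the other direction it was 10.5% to 12.7%. The block offsets, Bur minus Kil, had medians of 2.05, -0.03 and -0.47 kb on chromosomes 2, 3 and 4. They were 12.2 and 10.7 kb on chromosomes 1 and 5, where Bur positions were counted back from the reference length and so carry the difference in chromosome length. On the arms 59.9% of all Kil summits and 78.7% of Bur summits were matched, and in the pericentromere 46.4% of Kil and 47.3% of Bur summits. Among arm summits with a scaled pileup of at least 10, 84.6% of 3013 in Kil and 89.7% of 2025 in Bur were matched.

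At matched summits the scaled pileup, per header tags of nucleus and organelles together, was mostly higher in Kil on the arms. The median ratio of Kil to Bur was 1.13 over 5095 arm pairs, with 69.1% of them higher in Kil, and 0.946 over 331 pericentromeric pairs, with 41.1% higher in Kil. By distance the median ratio was 1.06 from 2.5 to 5 Mb, 1.09 from 5 to 7.5 Mb, 1.16 from 7.5 to 10 Mb and 1.19 beyond 10 Mb. Over the 16 pairings of a Kil file with a Bur file, the index of scatter was 1.502 to 1.644 on the arms and 7.15 to 12.2 in the pericentromere. It was 0.828 to 0.883 between files of 1 accession, but there it covered all nuclear chromosomes and summits within 50 bp without merging or offsets. No index by region was computed within an accession. At a given ratio the index is also larger where pileups are higher, so these values are not on equal terms. At least a 2-fold difference was seen at 91 arm pairs with Kil higher and 5 with Bur higher, and at 6 pericentromeric pairs with Kil higher and 17 with Bur higher.

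The pairs that differed most bordered the centromeres. They were chosen after their values had been seen, and each position is the one the list gives. The Kil summit at 12805316 of chromosome 5 had a scaled pileup of 178.5, against 17.5 at its Bur partner at 14160158. The Kil summit at 12852074 of chromosome 5 had 81.0, against 7.53 at the Bur partner at 14113399. In the other direction, the Kil summit at 14191586 of chromosome 1 had a scaled pileup of 7.42, against 99.9 at its Bur partner at 16223004. The Kil summit at 13531680 of chromosome 3 had 32.5, against 330.6 at the Bur partner at 13531258. The ratios were thus 10.2 and 10.7 for the sites on chromosome 5, Kil over Bur, and 13.5 and 10.2 for the sites on chromosomes 1 and 3, Bur over Kil. Outside the pericentromere the largest ratio was 3.13, Kil over Bur, at 15218073 of Kil chromosome 5. The part of repeat copy number in these pairs was not tested.

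The highest nuclear peak was the same in both accessions. At 7102679 of Kil chromosome 3, in a peak of 617 bp, the scaled pileup was 533.0, 549.2, 547.2 and 522.7. At 7102506 of Bur chromosome 3, in a peak of 629 bp, it was 377.9, 377.1, 406.0 and 384.1, so the Kil level was 1.39 times that of Bur. The next highest in Kil were at 12860394 and 12805316 of chromosome 5, with means of 211.6 and 178.5, and at 3396730 and 3466272 of chromosome 2, with 170.9 and 169.3. These last 2 lie in the stretch that is mitochondrial in the reference, and their Bur partners were close, at 165.9 and 160.6. The next highest in Bur were at 3330719 of chromosome 2, with 311.4 against 85.7 in Kil and also in the mitochondrial stretch, and at 13585635, 13535155 and 14190122 of chromosome 3, with 294.6, 182.9 and 169.1. The one at 13535155 had a Kil partner of 54.8 and the one at 14190122 a Kil partner of 149.5.

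Median widths overlapped between the accessions when all peaks were taken. The median width was 256, 255.5, 260 and 259 bp in the Kil files, against 256, 242, 252 and 245 bp in the Bur files. The means of 257.6 ± 2.2 bp in Kil and 248.8 ± 6.4 bp in Bur (SD, n = 4 files each) differed by 8.88 bp, and the files overlapped. With equal numbers of the most significant peaks the medians were 292.8 bp in Kil and 254.5 bp in Bur, a difference of 38.3 bp. Peaks at the smallest width the caller allows, that of 1 fragment, were 7.51% to 8.53% in Kil files and 9.87% to 10.9% in Bur files. The caller's fragment length was 158, 159, 161 and 161 bp in the Kil files and 168, 155, 165 and 160 bp in the Bur files. Among the Bur files the median widths had the same order as these lengths. The part of fragment length in the widths was not tested. Peaks of at least 600 bp were 2.20% to 2.56% in Kil files and 1.95% to 2.54% in Bur files. The medians in the pericentromere, 268.5 to 276 bp in Kil files and 271 to 280 bp in Bur files, were above those on the arms, 254 to 259 bp in Kil files and 239 to 254 bp in Bur files.

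Summits were closer together in Kil. The median spacing of neighbouring summits was 7133, 7297, 7077 and 7193 bp in the Kil files, against 9774, 8784.5, 9605 and 9975 bp in the Bur files, a ratio of 0.753 without overlap. With equal numbers of peaks the ratio was 0.983. Spacings under 1 kb were 8.77% to 9.49% in Kil files and 7.65% to 8.05% in Bur files. Spacings over 50 kb numbered 299 to 325 in Kil files and 361 to 440 in Bur files.

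**Figure D5:**
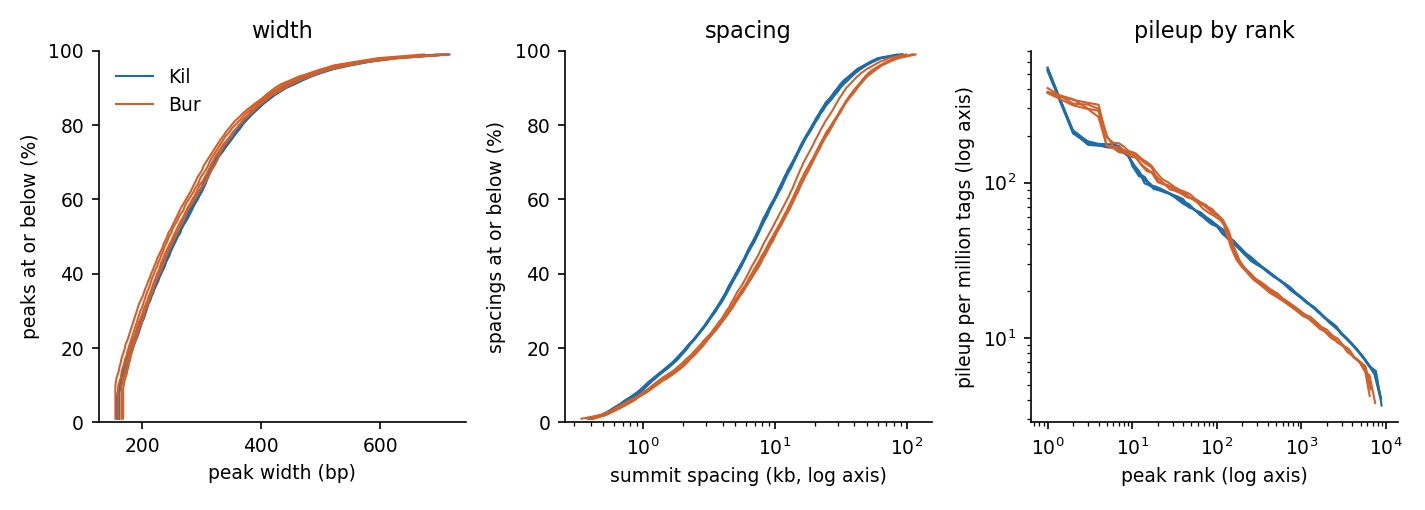
Cumulative share of peak widths in bp (left) and of summit spacings in kb on a log axis (middle), and scaled pileup (per 1000000 tags) against peak rank on log axes (right), with 1 line per file for Kil (blue) and Bur (orange). The widths overlap, the Kil spacings lie to the left with medians of 7077 to 7297 bp against 8784.5 to 9975 bp in Bur, and the Bur pileups are above Kil at rank 100 and below it at rank 1000.

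The longest stretch without any summit in the 4 files lay near the centromere on each chromosome, and it was nearly the same in both accessions on chromosomes 1 and 2. On chromosome 1 the stretch was 773.7 kb in Kil, centred at 14.7 Mb, and 773.4 kb in Bur, centred at 15.7 Mb as listed and at 14.7 Mb when read from the other end. On chromosome 2 it was 348.7 kb in Kil and 348.4 kb in Bur, centred at 3.95 Mb in both. On chromosome 3 it was 944.5 kb in Kil and 1031 kb in Bur. On chromosome 4 the longest was 592.5 kb in Kil, from 4.20 to 4.80 Mb, and Bur had the same stretch at 592.4 kb as its next longest. The longest in Bur there was 601.7 kb, from 3.06 to 3.66 Mb, which Kil summits divided into stretches of 324.1 and 299.6 kb. On chromosome 5 it was 729.4 kb in Kil, from 12.1 to 12.8 Mb. In Bur the same stretch held 0, 1, 2 and 2 summits in the 4 files, with pileups of 13 to 17 fragments, and the longest was 353.6 kb.

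Organelle peaks were a small part of each list, and the highest chloroplast peaks were above every nuclear peak. The Kil files held 227 to 236 organelle peaks, against 208 to 216 in the Bur files, a difference of 19.3. In the chloroplast they numbered 91 to 95 in Kil files and 85 to 93 in Bur files, with overlap, and in the mitochondria 135 to 144 in Kil files and 123 to 129 in Bur files, without overlap. The median chloroplast peak had a scaled pileup of 749.3 ± 1.9 in Kil and 643.7 ± 19.7 in Bur, and the median mitochondrial peak had 67.9 ± 2.8 in Kil and 77.7 ± 3.6 in Bur (SD, n = 4 files each). The medians did not overlap between files, higher in Kil for the chloroplast and in Bur for the mitochondria, but the lists differ in length. At the 5 highest mitochondrial ranks the mean scaled pileup was higher in Kil, at 899.8, 342.6, 292.6, 191.7 and 175.4 in Kil and 730.9, 177.8, 166.7, 148.8 and 148.7 in Bur.

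The chloroplast of Bur was also listed in the opposite direction. Of 95 Bur summits, 21 matched Og summits as listed and 67 did when reversed, while of 97 Kil summits 77 matched as listed and 19 when reversed. The mitochondria ran the same way in both, with 82 of 133 Bur summits matched to Kil as listed and 17 when reversed. The matches were within 50 bp around 1 offset on the circle.

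The highest chloroplast peaks were over ribosomal RNA genes, which lie in the inverted repeat and encode the RNAs of plastid ribosomes. Genes were read from Og, whose lists use reference names, and the TAIR10.1 annotation. The highest Og peak, with its summit at 136325, lay in a 16S rRNA gene at 136147 to 137637 on the minus strand, and the next, at 102283, lay in the other copy, rrn16S, at 101012 to 102502 on the plus strand. The third, at 106575, lay in rrn23S at 104691 to 107500. The Kil peaks with summits at 136304, 102259, 131806 and 106631 were the highest in Kil, with mean scaled pileups of 3637, 3340, 3279 and 3186. The first pair lay within 50 bp of the Og summits over the 16S genes. The highest Bur peaks, at 52129, 18088 and 22489, averaged scaled pileups of 2612, 2404 and 2290, and counted back from the reference length the first pair fell at 102350 and 136391. The highest chloroplast peak was 1.39 times as high in Kil as in Bur. In the mitochondria the highest peak was at 364929 in Kil and 364915 in Bur, with a scaled pileup of 899.8 ± 26.6 in Kil and 730.9 ± 34.9 in Bur (SD, n = 4 files each).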

How the data were processed

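ATAC-seq peak lists of leaf samples, 4 files each for Kil and Bur, were analysed. According to the labels and file headers, the authors aligned reads of 36 bp with Bowtie 1.2.2. They called peaks with MACS2 2.1.2 on each file without a control, keeping all duplicates, at a q-value cutoff of 0.05. The paper reports alignment of each accession to its own genome, although the lists of Og and some other accessions carry reference names. Tag totals, nuclear and organelle together, are the depth. The deposited columns are the pileup at the summit as a signal, the fold enrichment as a ratio over the caller's background, and the significance as -log10 of p and of q. At 78.7% of Kil and 75.8% of Bur nuclear peaks that background was the genome-wide level within 0.05 tags, so fold enrichment followed the pileup and was not used further.

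Pileups were scaled to 1000000 tags, and merged summits lay within 100 bp. Directions were read from summit matches. Window calls and direction calls were tried on simulated lists of similar length, with peaks spread at random and window changes stronger than 1.5-fold. The trial does not show how window calls fare near 1.5-fold, in lists of unequal length or around centromeres. Positions are those listed, and a reversed chromosome was counted back from its TAIR10.1 length. Python 3.11.15, NumPy 2.4.6, pandas 2.3.3 and SciPy 1.17.1 were used, with minimap2 2.31 (assembly preset) to place mitochondrial DNA on chromosome 2. The named regions follow fixed rules: 5 windows at each end of the ratios, the 5 highest summits, the longest empty stretch per chromosome and the 5 highest organelle peaks. Members and lists were chosen with earlier results of these data known. Tsu-0 was left out of the set of other accessions, as were accessions with reference names. No sequence is shown, because the accessions' own genomes were not used here. Alternatives were stricter q-values, equal numbers of peaks, merged files, other window sizes, folds and limits, each file left out and, chosen after seeing the data, Bur chromosomes 1 and 5 reversed.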

Additional observations from a re-analysis of the deposited data

Results flagged for a closer look

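The mitochondrial peaks of Bur stood out in 1 file. Replicate 3 held 129 mitochondrial peaks, against 123 in each of the other 3 Bur files, so its gap to the others was the whole range of the group. Of 18 groups of 4 files examined for such a gap, this was the 1 found. The cutoff is meant to give about 1 in 20 by chance among independent groups of continuous values. These groups share files and include whole counts with ties, so that rate need not hold here. Replicate 3 was the highest of the Bur files, and every Kil file, with 135 to 144 mitochondrial peaks, lay above it.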

How the results depend on the processing

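No paired analysis was possible because the results come from no test, and the 4 files of each accession were counted as 1 sample. With q-values of 0.01 or 0.001 no value moved by more than the spread between files. With Bur chromosomes 1 and 5 read from the other end, the pericentromere share moved to -2.07 points, Kil minus Bur, and 7 of 214 windows were past the fold. As listed, the share difference was -3.06 points with equal numbers of peaks, -2.83 in the union of files, -2.43 within 1.5 Mb and -2.60 in 36 gene-poor reference windows. With directions matched these were -1.74, -1.56, -1.06 and -1.09. With equal numbers, the median width differed by 38.3 bp (292.8 bp in Kil and 254.5 bp in Bur), the median pileup ratio was 1.18 and the spacing ratio 0.983. The spacing ratio in the union was 0.904, and the ratio of pileups as deposited was 1.15. As listed, 15 of 116 windows were past the fold at 1 Mb, 82 of 392 at 250 kb and 15 of 218 at 2-fold. With directions matched they were 2 of 116 at 1 Mb and 25 of 389 at 250 kb (16 with a higher Kil share and 9 with a lower one). They were 1 of 214 at 2-fold and 2 of 195 with at least 20 peaks per file. The number of calls depended on window size in both readings, and so did the number of windows compared. With 1 file left out, 217 to 220 windows were compared as listed and 213 to 215 with directions matched. Leaving out each file in turn gave differences of 1808 to 2151 peaks, 17.7 to 20.9 organelle peaks, 6.63 to 11.3 bp in width, -3.54 to -3.37 points as listed and -2.20 to -1.99 with directions matched, ratios of 0.733 to 0.764 for spacing and 0.985 to 1.02 for pileup, and 31 to 37 windows as listed and 6 to 10 with directions matched. The pileup ratio of 1.00 has no direction that the files bear out. Counts of 5 to 20 peaks limit single windows.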
